A study of Mus musculus with 12 samples.

Results

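The genes described here lie in a single stretch of mouse chromosome 2, chr2:148681120-156392979 (mm10), read in 3 small cell lung cancer lines in which Nfib was lowered or raised. A gene was taken as a member where all of its exon intervals lay in this stretch and carried only its own name, and 13 genes named in the rule were left out, of which 12 lie in the stretch. This gave 150 members among 23226 genes of the series with 1 name. The stretch and its borders were chosen by the KP22 log2 fold changes, which were low along it. Values from KP22 are therefore given as a description, with no test. The values from 16T and KP1 did not choose the members.

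The lines 16T, KP1 and KP22 are labelled tumor-derived and Trp53-/-;Rb1-/-, and grow as floating spheres in RPMI with serum. A control shRNA (shLuc) or 1 shRNA against Nfib (sh2) was carried by 16T and KP1, which are labelled Nfib high. The third line, KP22, is labelled Nfib low and carried either an empty vector or an Nfib cDNA vector. There were 2 samples per group in 6 groups, 12 in all, and the labels do not say that they were separate cultures, so a p-value measures only the spread between these samples. Markers of neuroendocrine lung cells had mean normalized counts between 5290 and 45597 (8 of 8 genes) in the authors' deposited table, in which 3 markers of leukocytes, Ptprc, Lyz2 and Cd68, were at 1.38, 13.4 and 157. Of fibroblast markers, Col1a2, Col1a1 and Pdgfra were at 2.02, 21.6 and 2220, and of endothelium markers, Cdh5, Pecam1 and Kdr at 2.11, 17.9 and 495 in the authors' deposited table. In a bulk sample, fewer cells with a transcript and less RNA per cell cannot be told apart.

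NFIB belongs to the nuclear factor I (NFI) transcription factors, whose dimers bind a palindrome of TTGGC and GCCAA separated by a spacer. Small cell lung cancer is a neuroendocrine tumor in which Nfib is known for gene amplification and for a role in metastasis. Neighbouring genes on a chromosome often have unrelated functions. This stretch holds widely expressed genes of membrane traffic, protein folding, metabolism and transcription, and also tandem clusters of cystatins, beta-defensins and BPI fold proteins, which are used in few tissues.

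Nfib, on chromosome 4, had log2 fold changes of -1.08 ± 0.035 for 16T, -1.32 ± 0.035 for KP1 and 1.80 ± 0.036 for KP22 in the authors' deposited table. The file headers give no direction for a comparison. It was set by the sign of Nfib, which therefore tests no label. The table gives, for each gene and comparison, a log2 fold change with its SE (printed after ±), and 1 mean normalized count over all libraries. It holds no value per sample, so the counts behind each library and the overlap of single samples are unknown here. A gene is said to have risen or fallen in 16T or KP1 where the authors' adjusted p was below 0.05. The fold changes look shrunken towards 0, so percentages of the control level computed from them understate large changes of low genes.

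Of the 150 members, 22 had a mean normalized count of 0, 37 were above 0 and below 10, and 91 reached 10, the level from which members are counted below. Of these 91, 74 had a mean of at least 100 and 53 of at least 1000. By biotype 139 of the 150 are protein coding. Many of the members listed at 0 belong to the tandem clusters. All 11 beta-defensin members were below 10, and 8 of them, 4 BPI fold genes and 4 cystatins were listed at 0. Among 13 BPI fold members, 1 reached 10, which was Bpifb1 with 33.9, and among 9 cystatin members 1 did, which was Cst3 with 3579. Cst3 encodes cystatin C, a secreted inhibitor of cysteine proteases that most tissues make.

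Promoter sequences are shown for 5 members that mark the span of values in KP22. Pygb was the lowest member with a mean of at least 1000, Tm9sf4 and Apmap lay between the median member and the lower quartile, Rbm39 was near 0, and Syndig1 was the highest. Each run is the 250 bases before the annotated start on GRCm38.p6 from RefSeq, the same assembly as mm10, read 5′ to 3′ on the gene's strand. Capitals mark TTGGC or GCCAA, the arm of the NFI palindrome on either strand.
Pygb, chr2:150786546-150786795, plus strand: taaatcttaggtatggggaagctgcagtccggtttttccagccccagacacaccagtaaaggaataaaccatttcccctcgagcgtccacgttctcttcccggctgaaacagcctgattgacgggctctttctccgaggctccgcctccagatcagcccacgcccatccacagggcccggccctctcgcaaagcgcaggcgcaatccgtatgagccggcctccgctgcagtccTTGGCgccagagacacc
Tm9sf4, chr2:153161051-153161300, plus strand: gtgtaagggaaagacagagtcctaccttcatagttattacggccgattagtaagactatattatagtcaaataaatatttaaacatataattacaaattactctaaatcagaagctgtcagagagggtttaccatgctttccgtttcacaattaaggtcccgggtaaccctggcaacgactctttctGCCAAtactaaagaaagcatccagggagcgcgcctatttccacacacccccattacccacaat
Apmap, chr2:150608568-150608817, minus strand: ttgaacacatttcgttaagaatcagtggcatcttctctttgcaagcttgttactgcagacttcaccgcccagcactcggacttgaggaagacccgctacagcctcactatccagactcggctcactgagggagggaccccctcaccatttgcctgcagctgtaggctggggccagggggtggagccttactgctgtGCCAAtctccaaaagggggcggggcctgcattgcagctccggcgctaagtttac
Rbm39, chr2:156180239-156180488, minus strand: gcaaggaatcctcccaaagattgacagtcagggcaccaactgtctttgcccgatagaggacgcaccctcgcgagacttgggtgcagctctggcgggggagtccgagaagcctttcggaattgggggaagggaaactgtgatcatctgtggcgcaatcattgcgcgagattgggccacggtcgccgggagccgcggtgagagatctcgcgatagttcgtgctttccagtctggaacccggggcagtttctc
Syndig1, chr2:149830533-149830782, plus strand: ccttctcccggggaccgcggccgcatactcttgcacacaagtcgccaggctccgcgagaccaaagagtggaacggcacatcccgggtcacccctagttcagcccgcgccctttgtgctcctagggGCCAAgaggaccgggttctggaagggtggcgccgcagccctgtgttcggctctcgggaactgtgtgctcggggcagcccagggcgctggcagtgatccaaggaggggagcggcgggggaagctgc
The arm was found once in the windows of Pygb, Tm9sf4, Apmap and Syndig1, and 0 times in that of Rbm39. The full palindrome, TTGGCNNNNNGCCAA, read the same on both strands, was in 12 of 32851 RefSeq windows of 300 bases (250 before and 50 after the start; 0.0365%) and in 0 of 85 windows of the 76 members with a mean of at least 10 that matched. The arm TTGGC on either strand, which is part of the palindrome, was in 44 of the 85 windows (51.8%) and in 46.7% of all windows. The 40 members with an arm had a median log2 fold change in KP22 of -0.49, and the 36 without had -0.53. The medians with and without an arm were -0.12 and -0.017 in 16T and -0.11 and -0.077 in KP1. In these lines the members with an arm had the lower median. No such medians over all genes are given here, and whether an arm bears on the values was not tested. Such a match is a description of letters, and GC content differed too, with a median of 58.0% in the 85 windows and 52.7% in all.

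In KP22 with Nfib cDNA most of the members with a mean of at least 10 lay below the control. In the authors' deposited table, 73 of the 91 members (80.2%) had a log2 fold change below 0, against 44.6% of 15008 genes that reached the same mean. The member median was -0.47, which is 72.3% of the control level, against 0.046 for all genes. The middle part of the members lay between -0.67 and -0.19, and the extremes were Rspo4 at -2.35 and Syndig1 at 1.65.

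Members with high counts were below 0 nearly without exception. Of the 53 members with a mean of at least 1000, 51 were below 0 in KP22, with a median of -0.52 (69.7% of the control) and a range from -1.48 to 0.11. Their quartiles lay 0.353 apart, close to the 0.367 of the 8146 genes of that level in the whole series, whose median was 0.033. Of these 53 members 33 (62.3%) lay within 0.25 of their own median, and 62.4% of all genes of that level lay within 0.25 of theirs. Across the 74 members with a mean of at least 100, Pearson's r between the log10 mean and the KP22 value was -0.15. Of the left-out genes of the stretch at a mean of at least 1000, Id1 (0.88), Bcl2l1 (0.34) and E2f1 (0.095) lay above 0. The others of that level lay below 0.

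**Figure D1:**
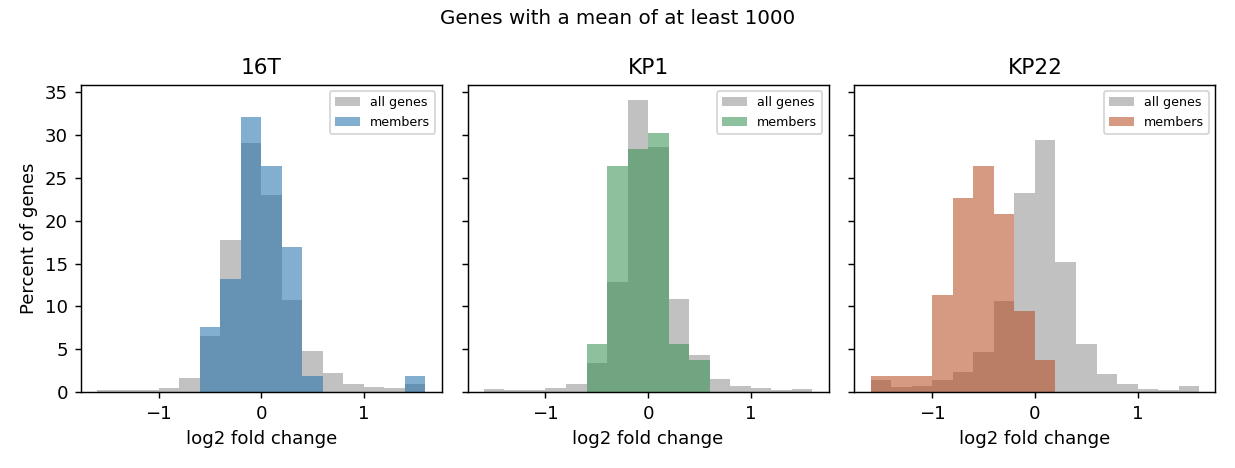
Distribution of log2 fold changes of genes with a mean normalized count of at least 1000 in 16T, KP1 and KP22, as percent of genes per bin of 0.2, for the 53 members (colour) and all 8146 genes (grey). The end bins also hold values beyond them. In KP22 the member bars are centred near -0.52. In KP1 26.4% of the members and 12.9% of all genes lie between -0.4 and -0.2.

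The lower values in KP22 ran along nearly the whole stretch and ended near its borders. Those borders were set on KP22 values, so the KP22 values at the ends, in the flanks and in the runs describe that choice. With the members cut into 4 runs of similar number in chromosome order, the median in KP22 was -0.58 from Gzf1 to Tmem74b, -0.51 from Psmf1 to Pofut1, -0.47 from Kif3b to Trp53inp2 and -0.30 from Ncoa6 to 2900097C17Rik. The same 4 runs had medians of -0.088, 0.015, -0.053 and -0.018 in 16T and of -0.25, -0.014, -0.042 and -0.099 in KP1. A running median over 11 neighbouring genes was below -0.2 at 77 of the 91 members in KP22, at 24 in KP1 and at 6 in 16T. In KP22 it was lowest at Ncoa6 (-0.82). The longest run of such windows in KP22 anywhere in the genome was the 58 from Gzf1 to Bpifb1, and the next was the 29 from Actl10 to Spag4, both in this stretch. The longest elsewhere in KP22 had 19 windows, on chromosome 4. Runs were not special to KP22, since the longest in 16T had 39 windows on chromosome 4 and the longest in KP1 had 20 on another part of chromosome 2. KP1 also had a run of 16 windows inside the stretch, from Pigu to 6430550D23Rik, where its lowest running median was -0.30.

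Both flanks of equal length lay near 0. On the left flank 37 genes had a mean of at least 10, with medians of 0.014 (16T), 0.045 (KP1) and 0.042 (KP22). On the right flank 62 such genes had medians of 0.0083, -0.048 and -0.0074. The rest of chromosome 2 (1120 genes) had a median of 0.045 in KP22. Members on the plus and minus strands were alike in KP22, with medians of -0.45 (46 members) and -0.47 (45 members).

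At the left border, Nxt1, an mRNA export factor whose last exon ends 5094 bases before the stretch, had -0.31 ± 0.10 in KP22 in the authors' deposited table. Next outwards, Foxa2, a forkhead factor of lung endoderm, had -0.045 ± 0.054 and Pax1 0.38 ± 0.52, per the authors' deposited table. Just inside the border the members Gzf1, Napb and Cst3 had -0.60 ± 0.075, -0.88 ± 0.094 and -0.96 ± 0.063, in the authors' deposited table. The right border was less sharp. The last members Scand1, Cnbd2 and 2900097C17Rik had 0.11 ± 0.090, -0.23 ± 0.33 and -0.23 ± 0.041 in the authors' deposited table, and the first genes outside, Epb4.1l1, Aar2 and Dlgap4, had 0.35 ± 0.099, 0.17 ± 0.091 and 0.41 ± 0.061. Near this end Rbm12, Rbm39 and Phf20 were also close to 0, at 0.10, -0.087 and -0.062.

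**Figure D2:**
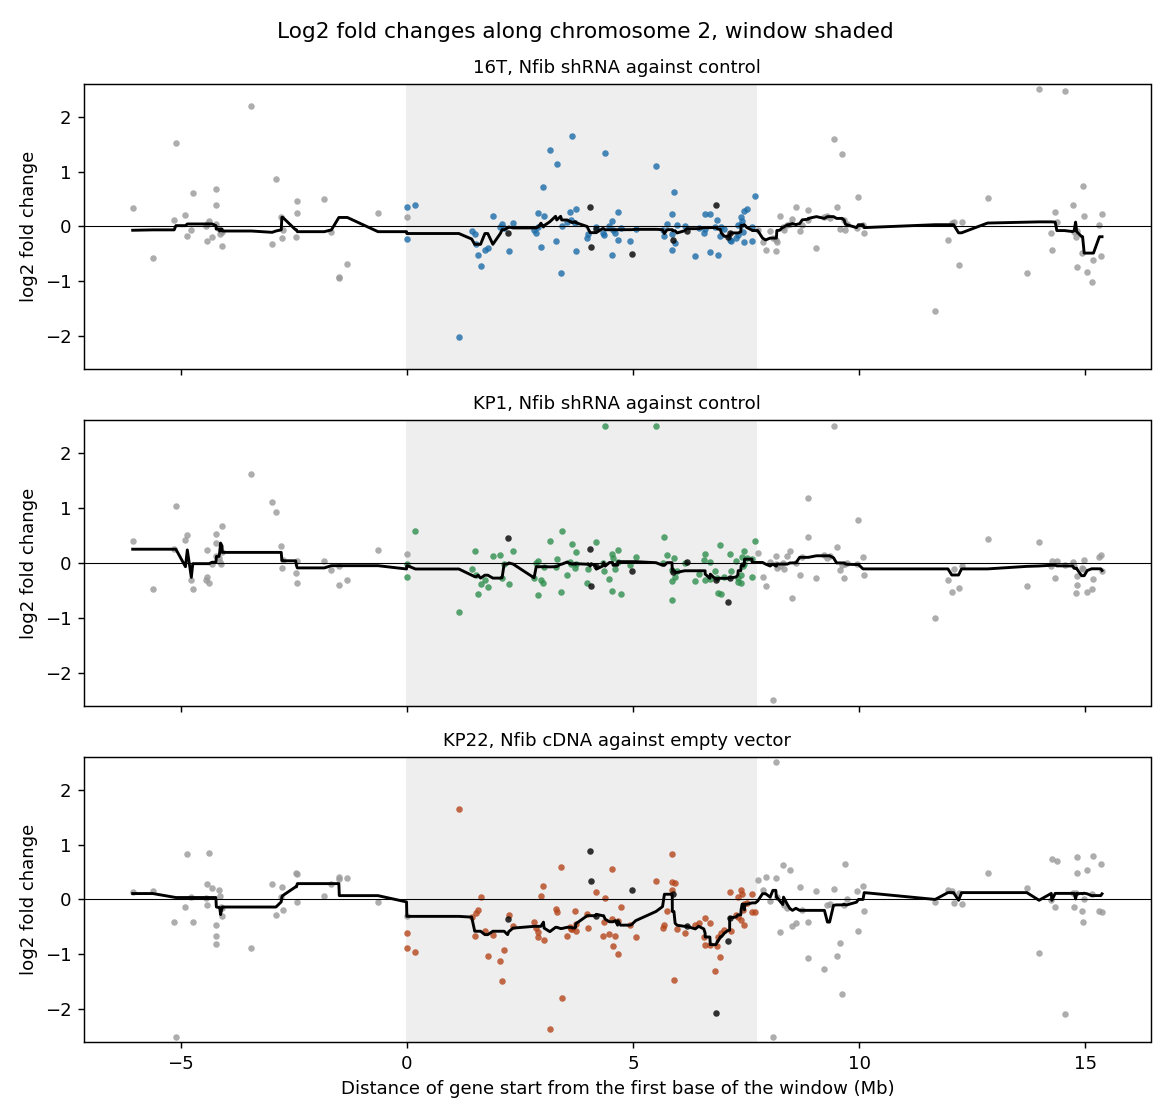
Log2 fold changes of the genes with a mean of at least 10 along chromosome 2, by distance in Mb from the first base of the stretch (shaded), in 16T, KP1 and KP22. Coloured points are members, black points the left-out genes and grey points the flanks; values beyond 2.5 are drawn at 2.5, and the line is the running median over 11 genes. In KP22 the line is below -0.2 at 77 of the 91 members, in KP1 at 24 and in 16T at 6.

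Nfib knockdown was followed by both rises and falls among the members. In 16T, 17 of 90 members tested (18.9%) rose and 18 (20%) fell, against 20% and 25.3% of all 14504 genes tested. The median member was at -0.028 and the median gene at -0.051. With effects recentred on the median gene, 21 of the 90 members rose and 11 of 90 fell in 16T, against 24.2% and 20.8% of all genes tested. With a t distribution of 6 degrees as reference in place of the normal one, 12 of 90 rose and 9 of 90 fell, against 14.6% and 17.2%. In KP1, 12 of 90 members (13.3%) rose and 21 (23.3%) fell, against 17.6% and 19.6% of all genes tested, with medians of -0.067 for members and -0.020 for all genes. Among members with a mean of at least 1000, 7 of 53 rose (13.2%) and 18 fell (34%) in KP1, against 21.6% and 24.7% of all genes of that level. In 16T 13 of these 53 rose (24.5%) and 12 fell (22.6%), against 24.4% and 32.3%. Most changes were small, with a median size of 0.32 for rises and 0.29 for falls in 16T, and of 0.37 and 0.30 in KP1.

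Some members moved the same way in both knockdown lines. Cst3, Trib3, Zcchc3, Ccm2l, Asxl1, Bpifb1, Map1lc3a and 2900097C17Rik, 8 of the 90 (8.89%), rose in both, as did 8.68% of all genes tested. Napb, Syndig1, Ninl, Scrt2, H13, Ahcy, Trp53inp2 and Gss, another 8 (8.89%), fell in both, as did 9.89% of all genes. None of the members were called in opposite directions, against 4.54% of all genes, and 38 (42.2%) were called in neither line, as were 40.5% of all genes. Across the 74 members with a mean of at least 100, Pearson's r between 16T and KP1 was 0.58, and over all 12287 such genes it was 0.48. Without Syndig1 the members' value was 0.48 as well. The comparisons in 16T, KP1 and KP22 share no samples.

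Between the knockdown lines and KP22 the members' values were weakly related. Pearson's r across the 74 members was -0.40 between 16T and KP22 and -0.35 between KP1 and KP22, but without Syndig1 it was -0.13 and -0.20. Over all 12287 genes with a mean of at least 100 it was -0.36 and -0.26. These are descriptions across genes, which are not independent replicates.

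**Figure D3:**
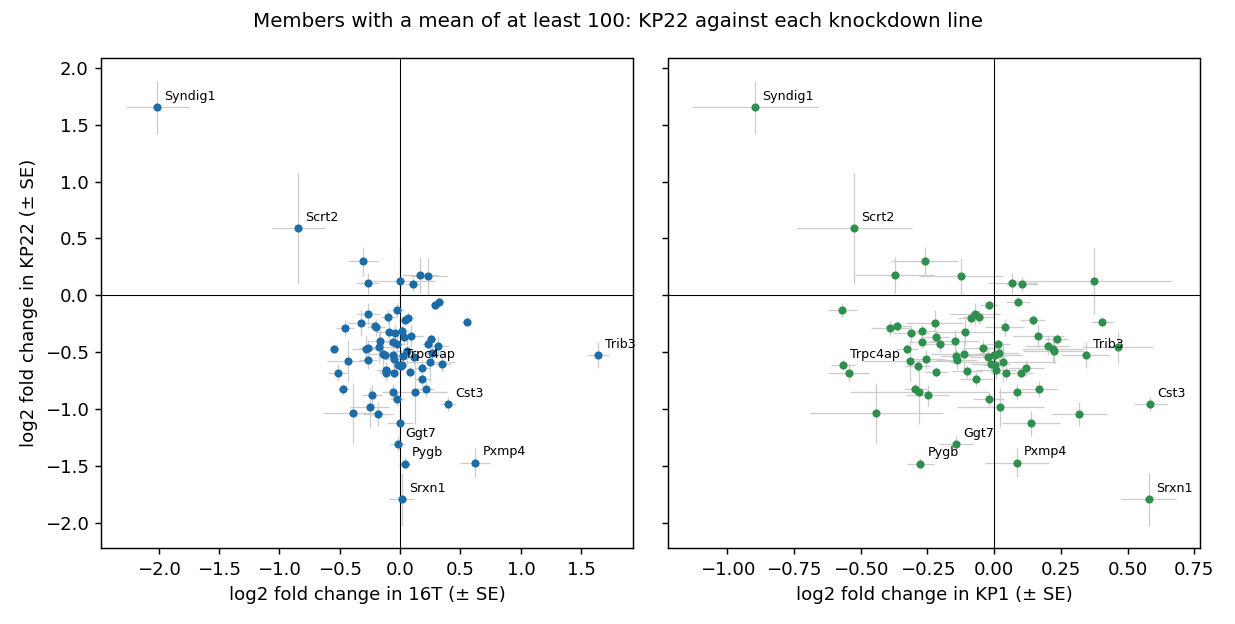
Log2 fold changes of the 74 members with a mean of at least 100 in KP22 (vertical) against 16T (left) and KP1 (right), with bars of 1 SE each way. Most points lie below 0 in KP22 whatever their place on the horizontal axis; Syndig1 stands alone at the upper left of both panels.

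Syndig1, a synaptic membrane protein, had the highest KP22 value of the 91 members and the lowest 16T value. In the authors' deposited table it had -2.01 ± 0.26 for 16T, -0.90 ± 0.23 for KP1 and 1.65 ± 0.23 for KP22, at a mean of 194. It fell in both knockdown lines (adjusted p = 2.15e-13 in 16T and 0.000754 in KP1) and was at 315% of the control in KP22, against the direction of its neighbours. Scrt2, a zinc finger repressor of the neural Scratch family, had -0.84 ± 0.22 for 16T, -0.52 ± 0.22 for KP1 and 0.59 ± 0.49 for KP22 in the authors' deposited table. Scrt2 too fell in both lines (adjusted p = 0.000574 and 0.0463), with a wide SE in KP22. The other members with the highest KP22 values at a mean of at least 100 were Zfp341 (0.30), Spag4 (0.18), Necab3 (0.17) and Mir5622 (0.13), all small. Mir5622 lies within the gene Tpx2, so its reads cannot be told apart from those of its host.

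Rspo4, which encodes an R-spondin, a secreted amplifier of Wnt signalling, had the reverse order. In the authors' deposited table it had 1.39 ± 0.37 for 16T, 0.41 ± 0.30 for KP1 and -2.35 ± 0.43 for KP22, at a mean of 92.4. It rose in 16T (adjusted p = 0.00079) and in KP22 was at 19.6% of the control, the lowest of the 91 members. Ccm2l, a gene known from endothelium, rose in both knockdown lines from a low mean of 27.3, by 1.34 ± 0.47 in 16T and 2.57 ± 0.46 in KP1 in the authors' deposited table. Bpifb1, a secreted airway protein of the BPI fold family with a mean of 33.9, rose by 1.09 ± 0.42 and 2.69 ± 0.45 (the authors' deposited table). In KP22 Ccm2l had 0.035 ± 0.49 and Bpifb1 0.33 ± 0.52, per the authors' deposited table. Ccm2l was chosen for mention after its values were seen. Rspo4 was too, in a group with Scrt2 and Sox12 (neural transcription factors and secreted ligands).

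The list of metabolic enzymes had a median of -0.91 in KP22, with 5 of 5 below 0 (all members: 80.2%). KP22 values chose the stretch, so such counts in this and the later lists largely follow from that choice and single out no function. Pygb, glycogen phosphorylase of the brain type, had 0.040 ± 0.052 for 16T, -0.28 ± 0.050 for KP1 and -1.48 ± 0.050 for KP22 in the authors' deposited table, at a mean of 5991. It was at 35.8% of the control in KP22 and fell in KP1 (adjusted p = 2.93e-07). Its neighbour Abhd12, a lipase of lysophosphatidylserine, had -0.028 ± 0.060 for 16T, -0.021 ± 0.058 for KP1 and -0.91 ± 0.060 for KP22, in the authors' deposited table. Ggt7, of the gamma-glutamyltransferase family, had -0.018 ± 0.063 for 16T, -0.14 ± 0.063 for KP1 and -1.31 ± 0.066 for KP22 in the authors' deposited table. Both Abhd12 and Ggt7 passed in neither knockdown line. Ahcy, which breaks down S-adenosylhomocysteine, had -0.55 ± 0.040 for 16T, -0.33 ± 0.040 for KP1 and -0.47 ± 0.040 for KP22 in the authors' deposited table, and Gss, glutathione synthetase, had -0.52 ± 0.080 for 16T, -0.55 ± 0.076 for KP1 and -0.68 ± 0.077 for KP22. Ahcy and Gss fell in both knockdown lines and were also lower in KP22, so their values lay below 0 in 3 of 3 lines. By count, 2 of the 5 fell in 16T (all genes tested: 25.3%) and 3 in KP1 (19.6%). None rose in 16T (all genes tested: 20%) or in KP1 (17.6%). At a mean of at least 1000, which all 5 reached, 32.3% of all genes fell in 16T and 24.7% in KP1.

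Srxn1 and Apmap were put together as redox and membrane enzymes after the values were seen, and are given here with the list of mitochondrial and organelle genes. Srxn1, sulfiredoxin, which repairs oxidized peroxiredoxins, had 0.015 ± 0.10 for 16T, 0.58 ± 0.10 for KP1 and -1.80 ± 0.23 for KP22 in the authors' deposited table. It rose in KP1 (adjusted p = 1.51e-07), and in KP22 it stood at 28.8% of the control, the lowest of members with a mean of at least 100. Pxmp4, a peroxisomal membrane protein placed in the mitochondrial list, had 0.62 ± 0.12 for 16T, 0.086 ± 0.12 for KP1 and -1.47 ± 0.13 for KP22 in the authors' deposited table. It rose in 16T (adjusted p = 1.99e-06). Apmap, a membrane protein of adipocytes and other cells, had 0.18 ± 0.069 for 16T, 0.12 ± 0.069 for KP1 and -0.64 ± 0.071 for KP22 in the authors' deposited table. In the list of mitochondrial and organelle genes, 4 of 5 members reached a mean of 10. Of these, 4 were below 0 in KP22 (all members: 80.2%), with a median of -0.52. Nfs1, the cysteine desulfurase of iron-sulfur cluster assembly, had -0.19 in KP22 in the authors' deposited table, Uqcc1, an assembly factor of respiratory complex III, -0.57, and Romo1, of the inner membrane, -0.47. Of these 4, Uqcc1 and Romo1 fell (all genes tested: 25.3%) and Pxmp4 rose (20%) in 16T, and in KP1 none rose (17.6%) or fell (19.6%).

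Genes of vesicle and membrane traffic were below 0 in KP22 in 10 of 10 members (all members: 80.2%). They ran from -0.88 to -0.32, with a median of -0.50. In KP1, 7 of the 10 fell (all genes tested: 19.6%) and 2 rose (17.6%), and in 16T, 3 fell (25.3%) and 1 rose (20%). Most of the 10 had a mean of at least 1000, a level at which 34% of members and 24.7% of all genes fell in KP1. The list was put together with earlier results of these data known. Trp53inp2, which acts in autophagy and as a coactivator, had -0.47 ± 0.044 for 16T, -0.30 ± 0.044 for KP1 and -0.83 ± 0.047 for KP22 in the authors' deposited table. Tm9sf4, a multi-spanning protein of endosomes whose promoter is printed above, had 0.0099 ± 0.049 for 16T, -0.29 ± 0.049 for KP1 and -0.62 ± 0.050 for KP22 in the authors' deposited table. Ergic3, of the compartment between endoplasmic reticulum and Golgi, had 0.017 ± 0.056 for 16T, -0.27 ± 0.055 for KP1 and -0.32 ± 0.056 for KP22 in the authors' deposited table. These 3 fell in KP1, and of them Trp53inp2 also fell in 16T. Cpne1, a calcium-dependent phospholipid binding copine, had 0.031 ± 0.048 for 16T, -0.22 ± 0.048 for KP1 and -0.37 ± 0.049 for KP22 in the authors' deposited table, and it too fell in KP1. Against these, Map1lc3a, the autophagosome protein LC3A, rose in both knockdown lines (0.22 ± 0.067 and 0.17 ± 0.067) and was at 56.6% of the control in KP22 in the authors' deposited table.

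Genes of the endoplasmic reticulum and glycosylation were below 0 in KP22 in 6 of 7 members (all members: 80.2%), with a median of -0.49. In KP1, 4 of the 7 fell (all genes tested: 19.6%), and in 16T 1 fell (25.3%). In neither did any rise (17.6% and 20%). Most of the 7 had a mean of at least 1000, a level at which 34% of members and 24.7% of all genes fell in KP1. H13, the files' name for the signal peptide peptidase Hm13, had -0.21 ± 0.045 for 16T, -0.36 ± 0.045 for KP1 and -0.27 ± 0.047 for KP22 in the authors' deposited table, and fell in both knockdown lines. Pigu, of the complex that attaches GPI anchors, had -0.041 ± 0.069 for 16T, -0.31 ± 0.068 for KP1 and -0.33 ± 0.069 for KP22 (the authors' deposited table). Edem2, which trims mannose from misfolded glycoproteins, had -0.050 ± 0.076 for 16T, -0.26 ± 0.074 for KP1 and -0.56 ± 0.076 for KP22 in the authors' deposited table. Pigu and Edem2 fell in KP1. The difference between 16T and KP1 passed for Pigu, at 0.27 ± 0.097 (adjusted p = 0.0206), and not for Edem2 (adjusted p = 0.136). Pofut1, the fucosyltransferase that modifies Notch, had -0.061 ± 0.070 for 16T, 0.085 ± 0.070 for KP1 and -0.85 ± 0.070 for KP22 in the authors' deposited table, and passed in neither knockdown line. Entpd6, a nucleoside diphosphatase, was at 45.8% of the control in KP22 (-1.13 ± 0.11) and lay near 0 in 16T (-0.0019 ± 0.11) in the authors' deposited table.

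Microtubule and centrosome genes with a mean of at least 10 were below 0 in KP22 in 5 of 5 members (all members: 80.2%). Their median was -0.67. In 16T 2 of them fell, Ninl and Cep250 (all genes tested: 25.3%), and in KP1 1 fell, Ninl (19.6%). None rose in 16T (all genes tested: 20%) or in KP1 (17.6%). Mapre1, the plus-end binding protein EB1, had -0.053 ± 0.045 for 16T, 0.099 ± 0.045 for KP1 and -0.68 ± 0.045 for KP22 in the authors' deposited table, at a mean of 14424. Dynlrb1, a light chain of dynein, had -0.12 ± 0.058 for 16T, 0.045 ± 0.057 for KP1 and -0.68 ± 0.059 for KP22, and Kif3b, a kinesin-2 motor of cilia, had -0.12 ± 0.058 for 16T, -0.10 ± 0.057 for KP1 and -0.67 ± 0.060 for KP22, per the authors' deposited table. These 3 differed from each other in KP22 by less than their SEs, and none was called in 16T or KP1. Cep250, which links the centrioles, had -0.20 ± 0.074 for 16T, 0.039 ± 0.074 for KP1 and -0.28 ± 0.075 for KP22 in the authors' deposited table and fell in 16T (adjusted p = 0.0172).

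Proteins of folding, ubiquitin and the proteasome were a group put together after the values were seen. In KP22, 4 of 4 were below 0 (all members: 80.2%), with a median of -0.53. Fkbp1a, the prolyl isomerase FKBP12, had -0.13 ± 0.040 for 16T, -0.00019 ± 0.040 for KP1 and -0.52 ± 0.040 for KP22 in the authors' deposited table, at a mean of 15072. Rbck1, the HOIL-1 subunit of a linear ubiquitin ligase, had 0.12 ± 0.064 for 16T, -0.024 ± 0.063 for KP1 and -0.54 ± 0.064 for KP22 in the authors' deposited table. Nsfl1c is a cofactor of the p97 ATPase, and the authors' deposited table gave it -0.060 ± 0.054 for 16T, -0.27 ± 0.054 for KP1 and -0.41 ± 0.054 for KP22. For Psmf1, a proteasome inhibitor, the authors' deposited table gave 0.18 ± 0.063 for 16T, -0.067 ± 0.063 for KP1 and -0.74 ± 0.063 for KP22. In the knockdown lines Fkbp1a fell and Psmf1 rose in 16T, and Nsfl1c fell in KP1.

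Kinases and GTPase regulators, also grouped after the values were seen, had 3 of 3 below 0 in KP22 (all members: 80.2%). Their median was -0.53. Csnk2a1, the catalytic subunit of casein kinase 2, had 0.085 ± 0.043 for 16T, -0.22 ± 0.043 for KP1 and -0.67 ± 0.044 for KP22 in the authors' deposited table. Trib3, a pseudokinase of the stress response, had 1.64 ± 0.090 for 16T, 0.34 ± 0.087 for KP1 and -0.53 ± 0.11 for KP22 in the authors' deposited table. Its rise in 16T was the largest of members with a mean of at least 100 (adjusted p = 2.6e-72). It rose in KP1 as well (adjusted p = 0.000509). Tbc1d20, a GTPase-activating protein for Rab proteins, had 0.26 ± 0.075 for 16T, 0.018 ± 0.074 for KP1 and -0.51 ± 0.078 for KP22 in the authors' deposited table. Of the signalling list, 3 of 8 members reached a mean of 10, which were Syndig1, Trpc4ap and Myh7b, and the last 2 were below 0 in KP22. Trpc4ap, a partner of a ubiquitin ligase, had -0.016 ± 0.045 for 16T, -0.57 ± 0.045 for KP1 and -0.61 ± 0.046 for KP22, and Myh7b, a myosin heavy chain, -0.18 ± 0.12 for 16T, 0.32 ± 0.10 for KP1 and -1.04 ± 0.11 for KP22, in the authors' deposited table. Trpc4ap fell and Myh7b rose in KP1, and part of their exons overlap and were held under a joined name with -0.49 in KP1.

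Transcription and chromatin genes were below 0 in KP22 in 10 of 12 members (all members: 80.2%), with a median of -0.34. In 16T, 4 of the 12 rose (all genes tested: 20%) and 4 fell (25.3%), and in KP1, 2 rose (17.6%) and none fell (19.6%). Asxl1, a Polycomb partner, had 0.26 ± 0.042 for 16T, 0.23 ± 0.042 for KP1 and -0.39 ± 0.042 for KP22 in the authors' deposited table and rose in both knockdown lines. Ncoa6, a coactivator of nuclear receptors, had 0.23 ± 0.046 for 16T, 0.015 ± 0.046 for KP1 and -0.43 ± 0.046 for KP22 (the authors' deposited table). Phf20, a reader of histone marks, had 0.32 ± 0.045 for 16T, 0.089 ± 0.044 for KP1 and -0.062 ± 0.044 for KP22 in the authors' deposited table. Ncoa6 and Phf20 rose in 16T. Cbfa2t2, a corepressor of the ETO family, had 0.037 ± 0.046 for 16T, 0.14 ± 0.045 for KP1 and -0.22 ± 0.045 for KP22 in the authors' deposited table, and rose in KP1. The neural factor Sox12 had 0.069 ± 0.050 for 16T, -0.088 ± 0.049 for KP1 and -0.20 ± 0.050 for KP22 in the authors' deposited table, small in each line. The zinc finger genes Zfp120, Zfp937, Zfp442, Zfp345, Gm14139 and Gm14124 are close copies of each other, and reads could be split between them, so their values, from -1.04 to -0.19 in KP22, are uncertain.

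Of the 5 members of the RNA processing list, 3 were below 0 in KP22 (all members: 80.2%). In 16T 1 of them rose (all genes tested: 20%), and in KP1 none rose (17.6%) or fell (19.6%). Rbm39, a splicing factor with a mean of 28776, had 0.29 ± 0.035 for 16T, -0.020 ± 0.035 for KP1 and -0.087 ± 0.035 for KP22 in the authors' deposited table, and rose in 16T (adjusted p = 2.96e-15). Raly, an RNA-binding protein of the hnRNP family at a mean of 19682, had 0.012 ± 0.041 for 16T, 0.0033 ± 0.040 for KP1 and -0.61 ± 0.040 for KP22, per the authors' deposited table. The SEs of Raly and Rbm39 are small, and the 2 differ in KP22 by far more than these. Rbm12, part of whose exons are joined with those of Cpne1, had 0.10 ± 0.060 for 16T, 0.10 ± 0.061 for KP1 and 0.10 ± 0.060 for KP22, and Cdk5rap1, which modifies mitochondrial tRNA, had -0.059 ± 0.11 for 16T, 0.0044 ± 0.10 for KP1 and -0.53 ± 0.11 for KP22 in the authors' deposited table. Necab3, listed here, is a calcium-binding protein.

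**Figure D4:**
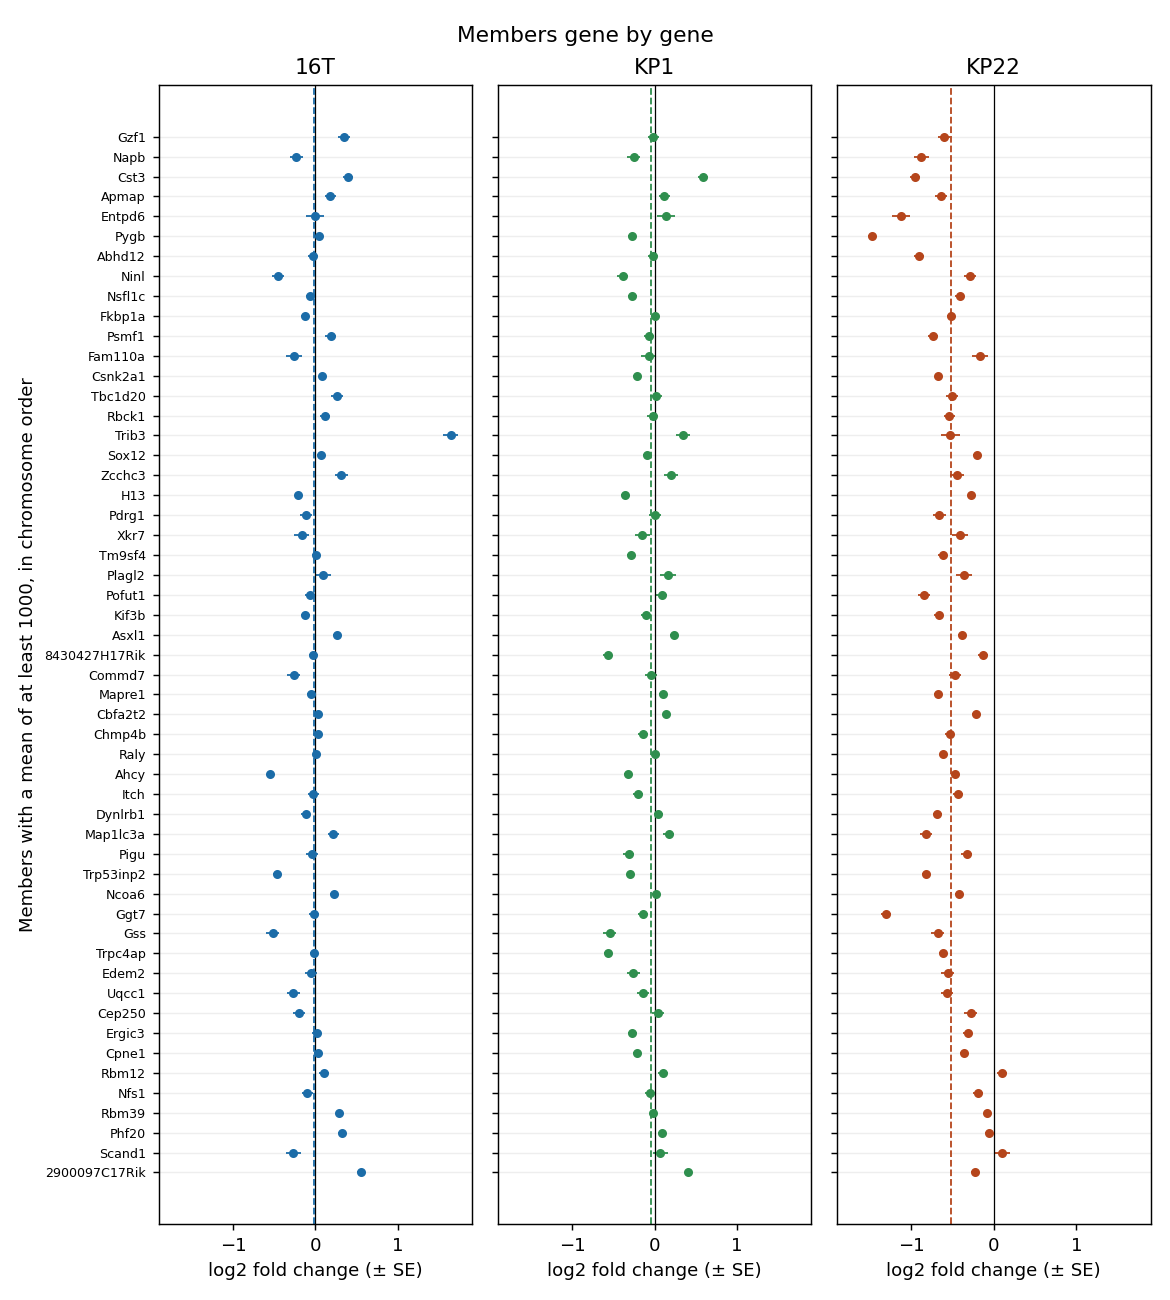
Log2 fold change with bars of 1 SE for each of the 53 members with a mean of at least 1000, in chromosome order from top to bottom, in 16T, KP1 and KP22. Dashed lines mark the median of the 53, which is -0.52 in KP22; 51 of 53 points lie left of 0 there, while points lie on both sides in 16T and KP1.

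The genes left out of the members did not all share the shift. In KP22 Acss2, cytosolic acetyl-CoA synthetase, had -2.07 ± 0.090, Mmp24, a membrane metalloprotease, -0.76 ± 0.10 and Eif2s2, a translation initiation factor, -0.49 ± 0.050 in the authors' deposited table. In the authors' deposited table, Eif6, Gins1 and Tpx2 had -0.33, -0.35 and -0.30. On the other side of 0 were Id1 (0.88 ± 0.060), an inhibitor of basic helix-loop-helix factors, Bcl2l1 (0.34 ± 0.058), an apoptosis inhibitor, Dnmt3b (0.18) and E2f1 (0.095) in the authors' deposited table. Gdf5 and Acss1 had means of 3.30 and 0.464 only, and Rbl1, outside the stretch, had 0.53. Exons of the stretch that were held under joined names were also mostly below 0, with a median of -0.33 in KP22 and 18 of 24 below 0. In 16T 18 of the 24 were below 0 as well, with a median of -0.092. In KP1 11 were, with a median of 0.0088. Of all genes with a mean of at least 10, 44.6% were below 0 in KP22, 56.3% in 16T and 53.1% in KP1. The 24 include exons of left-out genes and several pieces of some genes. For 12 pairs of a member and its own joined exons the median gap in KP22 was 0.080 and the largest 0.31, for Cep250.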

How the data were processed

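RNA of 12 samples in 6 groups was sequenced, with Qiagen and Illumina TruSeq kits per the labels' protocols. The submitters' processing notes name mm10 and, without a version, TopHat, bedtools, DESeq and DESeq2. The deposited table held results of comparisons and 0 columns of values per sample. For each of 28112 features it gave, per the file headers, 1 signal over all libraries, the mean normalized count,, a log2 fold change with its SE, a Wald score, and p-values and adjusted p-values, also for a null of at most 0.5 on the log2 scale. Its name mentions cqn normalization, per the labels. Library depth is unknown here, and precision is known only from the SEs the authors gave. A deposited list of 211975 exon intervals on mm10 gave positions. It names no strand of counting, so overlapping and antisense genes (Acss2os, BC029722, Mcts2 in H13) cannot be told apart.

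Members and role lists were chosen with earlier results of these data known, and 4 of the role groups after the values were seen. Members with a mean of at least 10 were counted. Of the 150 members, 28 have further exons under a joined name. All 150 matched GENCODE M21 by name and position. Of them, 120 matched a RefSeq promoter window. Calls in 16T and KP1 used the authors' adjusted p below 0.05, as the design had foreseen for a table of results. The difference 16T minus KP1 was computed for 15008 genes from the deposited effects and SEs, referred to a normal distribution with Benjamini-Hochberg adjustment, and the calculation was tested on simulated data. Named were up to 4 members with the highest mean per role list, and the 6 lowest and 6 highest KP22 values at a mean of at least 100. Called changes of at least 1 in 16T or KP1 at that mean were also named, with 3 genes on each side of each border. Some further members, such as Ccm2l, were picked after the values were seen. For 1 member, results are not reported here singly. Alternatives were other filters, centring, reference distribution, threshold, null hypothesis, flank width and the joined-name features. Python 3.11.15, pandas 2.3.3, numpy 2.4.6, scipy 1.17.1 and matplotlib 3.10.9 were used.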

Additional observations from a re-analysis of the deposited data

Results flagged for a closer look

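The knockdown lines differed from each other in some members. For 27 of 91 members (29.7%) the difference 16T minus KP1 had an adjusted p below 0.05 (Benjamini-Hochberg over 15008 genes, normal reference), against 29.4% of all genes, with 18 above 0 and 9 below. With a t distribution of 6 degrees as reference the count was 7 of the 91, against 12.5% of all genes. Of the 27 called with the normal reference, 9 had a mean of at least 100 and a difference of at least 0.5 in size, among them the following. Trib3, the stress pseudokinase, differed by 1.30, Trpc4ap by 0.55, 8430427H17Rik by 0.55, Spag4 by 0.54 and Pxmp4 by 0.54, each higher in 16T. Syndig1, the synaptic protein, differed by -1.12, Srxn1, sulfiredoxin, by -0.56 and Romo1 by -0.50, each lower in 16T. Both lines carried the same named shRNA, and the lines differ in more than the knockdown, which cannot be told apart here.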

How the results depend on the processing

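No paired analysis was possible because the deposited table holds results of comparisons and no value per sample; for the same reason no replicate could be left out. Members called in 16T, 35 in all, were 21 with a t reference (6 degrees of freedom) and 2 with the authors' test against a log2 fold change of 0.5. In KP1, 33 were called, and 2 with the test against 0.5. The share of all genes passing that test is not given here, so these counts cannot be set against it. The 27 members called for 16T minus KP1 became 7 with the t reference. The median of the left flank in 16T was -0.090 over the 20 nearest genes in place of 0.014, and the member median in KP22 was -0.30 over all 128 members with a value, which adds low genes with strongly shrunken fold changes. None of the settings tried reversed the sign of a called value. Of 55 named members, calls were lost by 9 in 16T and 6 in KP1 with the t reference, 8 and 2 at an adjusted p below 0.01, and 24 and 23 with the test against 0.5. Recentring lost 5 calls and added 4 in 16T, and lost 1 and added 2 in KP1. Library depth is unknown, and the cause of these changes was not tested.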

Other observations

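Some members fall in no role list, and those given here were picked after the values were seen, by no fixed rule. Xkr7 and Fam110a, also in no list and with higher means than Snph and Mcts2, had -0.41 ± 0.097 and -0.16 ± 0.096 in KP22. Pdrg1, a gene induced by DNA damage, had -0.11 ± 0.076 for 16T, 0.0079 ± 0.075 for KP1 and -0.66 ± 0.076 for KP22 in the authors' deposited table. Zcchc3, a zinc finger protein that binds nucleic acids, had 0.32 ± 0.081 for 16T, 0.20 ± 0.083 for KP1 and -0.44 ± 0.083 for KP22 in the authors' deposited table. Zcchc3 rose in both knockdown lines, and Pdrg1 passed in neither. Snph, which anchors mitochondria in axons, had 0.25 ± 0.21 for 16T, 0.031 ± 0.20 for KP1 and -0.59 ± 0.18 for KP22 in the authors' deposited table. Mcts2, a copy gene that lies within H13, had -0.14 ± 0.12 for 16T, -0.11 ± 0.12 for KP1 and -0.52 ± 0.13 for KP22 in the authors' deposited table, and reads of H13 introns cannot be told apart from its own. Snph and Mcts2 passed in neither knockdown line. In contrast to these, 8430427H17Rik was near 0 in KP22 and lower in KP1, with -0.023 ± 0.056 for 16T, -0.57 ± 0.054 for KP1 and -0.13 ± 0.057 for KP22 in the authors' deposited table. It fell in KP1 (adjusted p = 3.86e-24). The last member of the stretch, 2900097C17Rik, rose in both knockdown lines, with 0.55 ± 0.041 for 16T, 0.41 ± 0.041 for KP1 and -0.23 ± 0.041 for KP22 in the authors' deposited table.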
